A study of Mus musculus with 29 samples.

Results

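The genes described here are 10 stromal genes of mammary fat: Pdgfra, Pdgfrb, Pi16, Dpp4, Ly6a, Thy1, Fap, Sparc, Dcn and Lum. They were chosen by name as markers of fibroblasts and adipocyte progenitors, and they are 10 of the 30818 gene symbols in the expression table. All 10 were found and all 10 passed the filter on low values, which kept 19387 genes. None was at 0 reads in any library.

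RNA was sequenced from the mammary fat pad of wild-type C57BL/6N mice in 6 diet groups. LFCR mice (5 libraries), MCR mice (4) and ICR mice (5) had been made obese on diet D12492, labelled 60% high fat, and then lost weight on a calorie-restricted diet. LFCR was low in fat with 30% restriction, MCR was Mediterranean in style with 30% restriction, and ICR was restricted intermittently. LFD mice (5) lost weight after the same obesity on a low-fat diet without restriction, Obese mice (5) stayed obese, and Control mice (5) ate diet D12450J throughout. Every group, Control included, was injected at week 25 in fat pad 4 with E0771 cells, an established mouse mammary cancer line of the triple-negative kind, and the tissue sequenced was the tumor-free fat pad 9 of the other side. The titles and the cell line field name the tumor cells, while the tissue field and the design text name normal tissue. The comparisons ask what obesity does to the normal gland of a tumor-bearing mouse, and what is left of it after each kind of weight loss.

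Fat tissue holds, beside its adipocytes, a stroma of fibroblast-like cells that carry PDGF receptors. Some of these cells are progenitors that can become adipocytes, and others build the collagen matrix around them. Stem-like progenitors of the connective tissue between fat lobules are known in the mouse by Dpp4 and Pi16, and surface proteins such as Ly6a (Sca-1) and Thy1 are used to sort them. Several of the 10 genes are also made outside the stroma: Thy1, Dpp4 and Ly6a are also made by T cells, Ly6a and Sparc by endothelium, and Pdgfrb by pericytes. In bulk tissue, fewer cells of a type and less RNA per cell cannot be told apart.

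Depth ran from 16403903 to 49026986 reads per library, and the 5 libraries of lane 4 were the shallowest, at 18212783 reads or fewer. Lymphoid transcripts set 8 libraries apart from the rest. Averaged over 13 B cell genes, these 8 had log2 values of 5.67 to 6.53, and the other 21 had 10.0 to 12.6. The 8 are LFCR 1 and 3, MCR 1, 3 and 4, LFD 1, and Obese 1 and 5, so MCR keeps 1 library without them and ICR and Control keep all. The mouse mammary fat pad contains a lymph node, and results that turn on these libraries are given with and without them. Each title carries its own number, and nothing else says that the libraries came from separate mice, so a p-value here sets a difference against library-to-library spread, which may be technical.

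Values are normalized counts, which are reads divided by a scale factor per library, and differences are on the deposited log2 scale. A gene counts as changed where its adjusted p from limma is below 0.05, with Benjamini-Hochberg adjustment over all 19387 genes tested. Every adjusted p below is of this kind. Errors of counts are SD over libraries and errors of differences are SE.

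Per kilobase of exon, Sparc was the most abundant of the 10 genes, with 12450 ± 8247 normalized counts per kb over all 29 libraries. Dcn had 4495 ± 1522 per kb and Ly6a 3823 ± 1085 per kb, followed by Lum at 1474 ± 663 per kb. Thy1, Pdgfrb, Pi16 and Pdgfra lay between 445 and 872 per kb, Dpp4 at 278 ± 82.8 per kb and Fap at 147 ± 41.4 per kb. The most abundant pair, Sparc and Dcn, are secreted proteins of the matrix, and the least abundant, Dpp4 and Fap, are membrane proteases. Pi16 spread most between libraries, with its highest library 11.1 times its lowest, and Fap least, at 2.79 times.

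The sequence before the annotated start is shown for the pair of genes that changed between groups and are held in the RefSeq promoter table (GRCm38.p6). Sparc (chr11:55420081-55420330, minus strand) and Dpp4 (chr2:62412232-62412481, minus strand) are given as the 250 bases up to the start, 5′ to 3′, and capitals mark motif matches on either strand.
Sparc: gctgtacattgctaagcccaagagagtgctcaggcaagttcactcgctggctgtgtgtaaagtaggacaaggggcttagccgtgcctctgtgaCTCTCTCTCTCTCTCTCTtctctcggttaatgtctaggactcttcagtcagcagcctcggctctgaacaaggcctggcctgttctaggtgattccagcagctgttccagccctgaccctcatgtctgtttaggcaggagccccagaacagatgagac
Dpp4: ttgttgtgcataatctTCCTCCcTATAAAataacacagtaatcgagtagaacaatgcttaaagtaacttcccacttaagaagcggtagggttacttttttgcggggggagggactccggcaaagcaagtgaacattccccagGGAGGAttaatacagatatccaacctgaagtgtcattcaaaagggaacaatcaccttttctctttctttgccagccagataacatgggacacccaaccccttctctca
Among 32536 promoter windows of the same length, searched on both strands, the TATA box TATAAA is found in 12.3%. The GC box GGGCGG is found in 33% of them and the CCAAT box in 33.8%. The AP-1 site TGANTCA is held by 6.73% and the E box CACGTG by 6.04%, and a GGA repeat, GGAGGA, by 29.3%. A CT repeat, CTCTCTCT, chosen after the Sparc sequence was seen, is held by 3.54%. The capitals in the Sparc sequence are overlapping matches to this repeat, and the other motifs had 0 matches there. In the Dpp4 sequence they are TATAAA, near the end far from the start, and 2 matches to the GGA repeat. GC content was 54% for Sparc and 43.6% for Dpp4, against a median of 52.4% over all promoters.

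**Figure D1:**
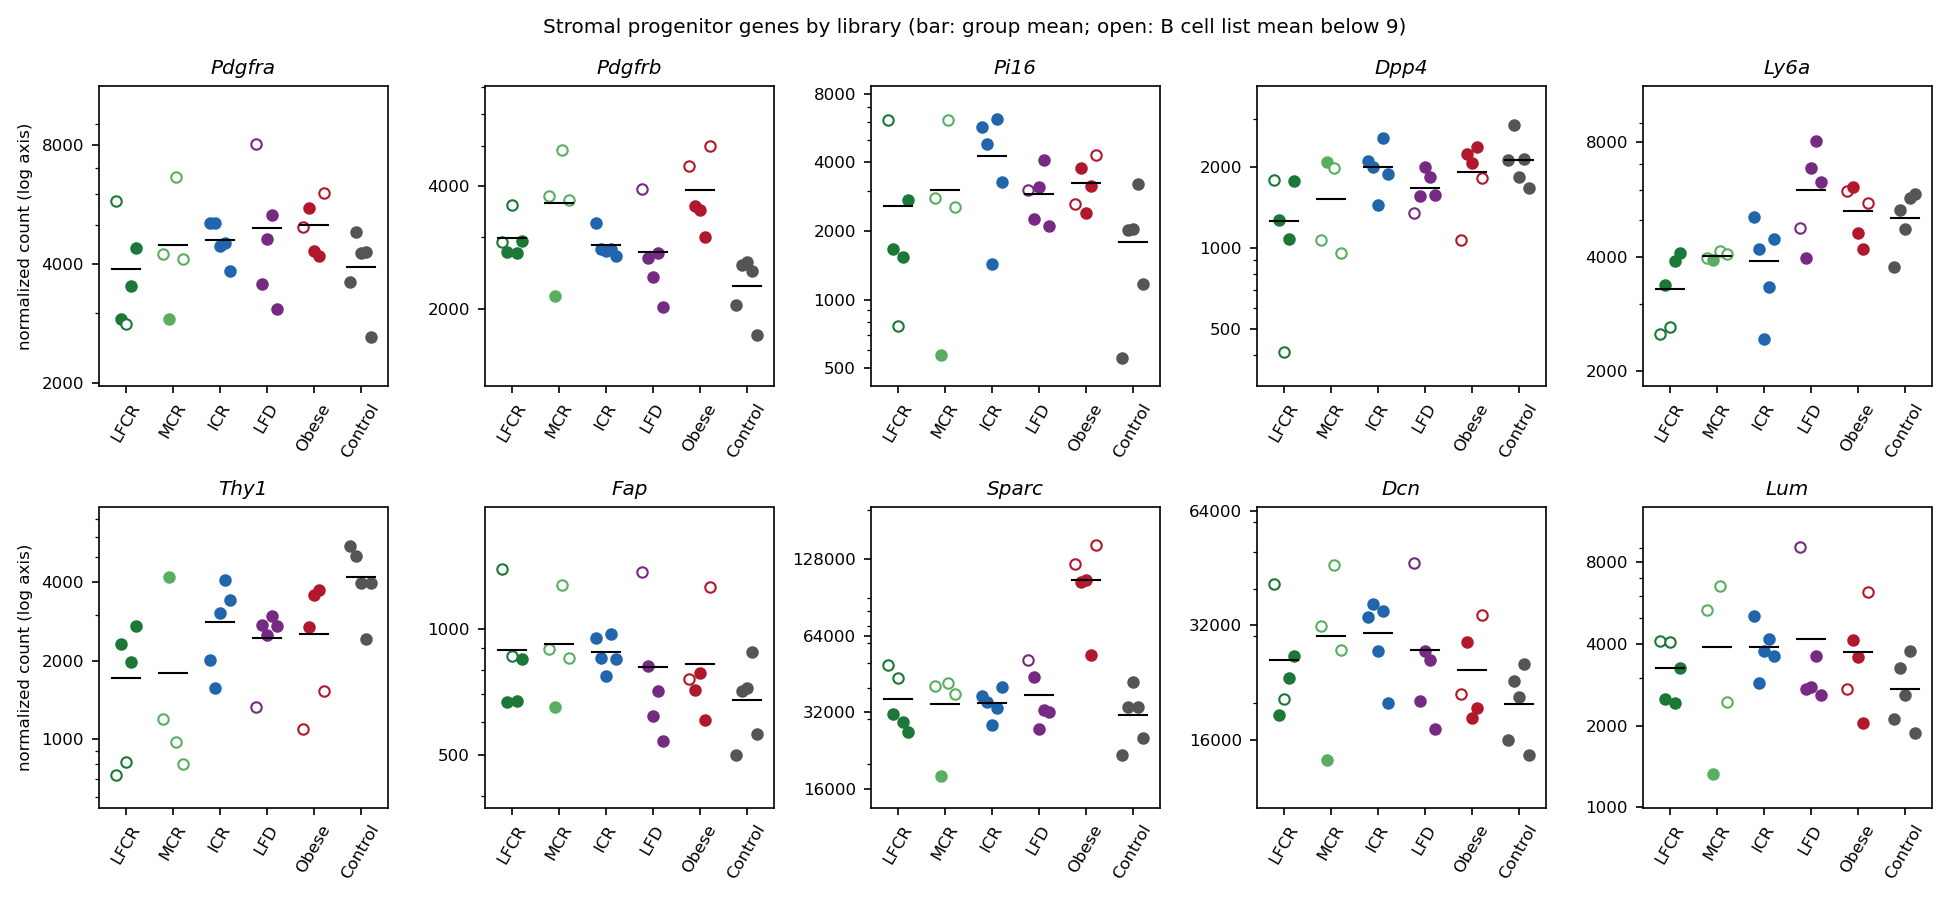
Normalized counts (log axis) of the 10 genes in each library, by group. Each point is 1 library, the bar is the group mean, and open points are the 8 libraries with low B cell transcripts. For Sparc, all 5 Obese libraries (53553 to 145888) lie above every other library.

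Sparc and Pdgfrb were higher in Obese than in Control glands. Sparc, a secreted glycoprotein that binds collagen and guides matrix assembly, was 3.41 times as high in Obese as in Control glands, and Pdgfrb, the PDGF receptor of pericytes and stromal progenitors, 1.71 times. These are 2 of the 10 genes, both higher, against 12.9% of all genes tested that changed, 9.44% higher and 3.44% lower. The difference between Obese and Control glands did not pass the test for the other 8.

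Sparc had 122309, 104009, 105819, 53553 and 145888 normalized counts in the Obese libraries. In the Control libraries it had 21658, 33549, 42110.3, 33424 and 25283. The groups did not overlap, and the lowest Obese library, Obese 4, still lay above the highest Control library. Means were 106316 ± 33953 in Obese and 31205 ± 7993 in Control (n = 5 each), a log2 difference of 1.73 ± 0.26 with adjusted p = 0.000193. Within lanes the difference was 0.68 to 2.50, above 0 in each of the 4 lanes that hold both groups. Without the 8 libraries with low B cell transcripts it was 1.46 (adjusted p = 0.00271).

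Pdgfrb had 4468, 3584, 3492, 2998 and 5014 normalized counts in the Obese libraries. In the Control libraries it had 2044, 2569, 2606, 2483 and 1732. Again the groups did not overlap, and the highest Obese libraries, 1 and 5, are those with low B cell transcripts. Means were 3911 ± 813 in Obese and 2287 ± 383 in Control (n = 5 each), a log2 difference of 0.76 ± 0.18 with adjusted p = 0.00725. The difference was 0.27 to 1.12 within the 4 lanes, and 0.56 (adjusted p = 0.0208) without the 8 libraries. Over all groups Pdgfrb ran from 2917 to 5014 in the 8 libraries and from 1732 to 3584 in the other 21. Ranges of the groups did not overlap for 9.15% of all genes.

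Pdgfra, the receptor that defines fibroblasts and adipocyte progenitors most widely, had 5005 ± 789 normalized counts in Obese and 3917 ± 845 in Control (log2 difference 0.37 ± 0.23, adjusted p = 0.288). Pi16, a peptidase inhibitor of adventitial fibroblasts, had 3250 ± 795 in Obese and 1795 ± 1001 in Control (1.03 ± 0.54, adjusted p = 0.203). Both groups overlapped for each gene. Fap, Dcn and Lum had log2 differences of 0.26 to 0.40, Ly6a of 0.06, Dpp4 of -0.17 and Thy1 of -0.82, with adjusted p of 0.207 or more. Beside these values, 6 of 10 endothelial markers were higher in Obese glands, with a list mean of 11.7 ± 0.326 (log2) in Obese and 11.1 ± 0.152 in Control. Of the smooth muscle and pericyte markers, 2 of 9 were higher, and their list mean was 11.3 ± 0.0648 in Obese and 11.1 ± 0.171 in Control. Of the luminal epithelium markers 5 of 12 were lower, with a list mean of 10.1 ± 0.341 in Obese and 11.2 ± 0.506 in Control. Their part in the Sparc and Pdgfrb results was not tested apart from a fit with the luminal mean as a covariate, which kept both calls.

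**Figure D2:**
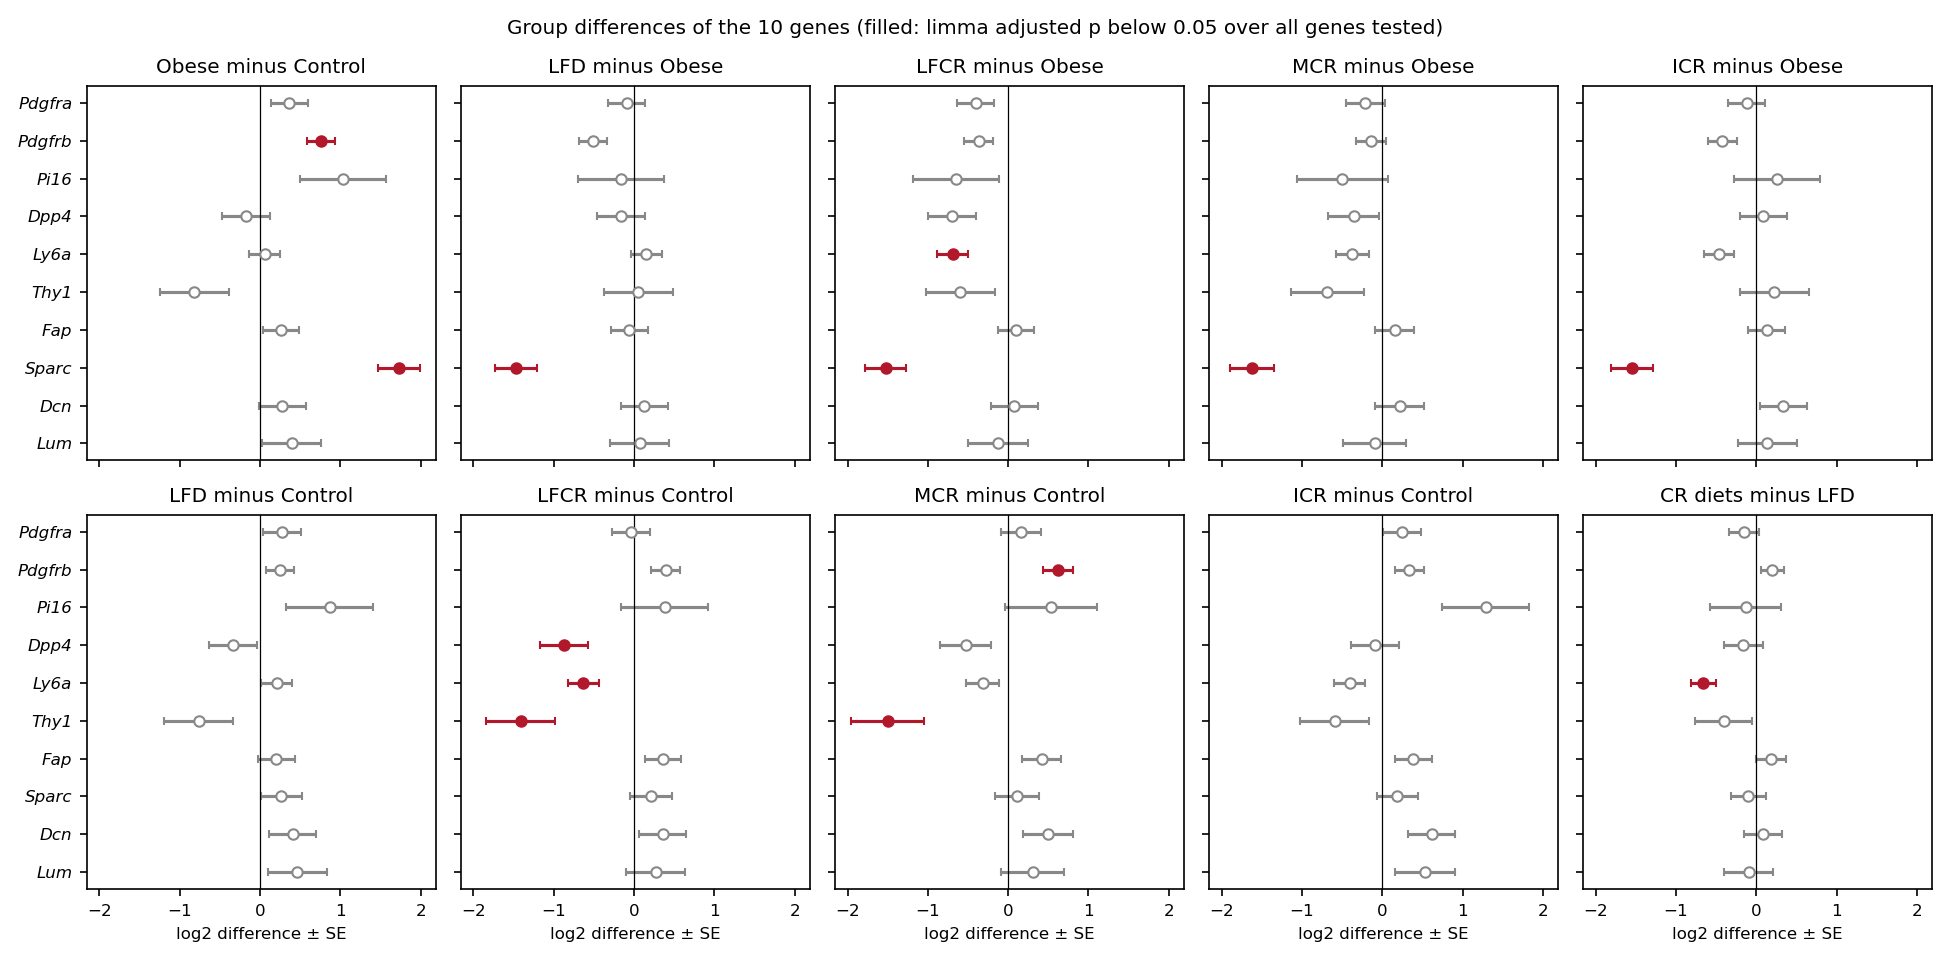
Log2 difference ± SE of each of the 10 genes in 10 comparisons, each panel naming the groups subtracted. Filled points have a limma adjusted p below 0.05 over all genes tested, and Sparc is filled at 1.73 in Obese minus Control and between -1.62 and -1.47 in the 4 diets minus Obese.

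Sparc was lower on each weight-loss diet than in Obese glands, and its means on the diets lay near the Control mean. Sparc fell to 36112 ± 9801 normalized counts in LFCR, 34491 ± 11098 in MCR, 34833 ± 4361 in ICR and 37471 ± 9759 in LFD glands, against 106316 ± 33953 in Obese glands (n = 4 for MCR, 5 for the others). It was the only one of the 10 genes with a call on each of the 4 diets. Pdgfrb and Pdgfra also had means below Obese on each diet, without a call in the main fit, and differences between genes were not tested. The 4 comparisons share the Obese libraries, so they are not independent of each other.

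The LFCR libraries had 49139, 31567, 43815, 29343 and 26693 normalized counts of Sparc. The MCR libraries had 40424, 18007, 41626 and 37908, and the ICR libraries 37171, 35096, 28461, 33341 and 40098. The LFD libraries had 51163, 43918, 27441, 32748 and 32085. No library on a diet reached the lowest Obese library, and each diet overlapped with Control. Ranges apart from Obese were seen for 15% of all genes in LFCR, 11% in MCR, 8.84% in ICR and 5.44% in LFD.

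Against Obese, the log2 difference of Sparc was -1.52 ± 0.26 in LFCR (adjusted p = 0.000160), -1.62 ± 0.27 in MCR (adjusted p = 0.000464), -1.54 ± 0.26 in ICR (adjusted p = 0.000458) and -1.47 ± 0.26 in LFD (adjusted p = 0.00184). Sparc was 1 of 2 members called in LFCR, both lower, where 21.4% of all genes were called, 11.9% higher and 9.42% lower. It was the only member called in MCR (12.4% of all genes, 6.66% higher and 5.69% lower), in ICR (9.21%, 3.99% higher and 5.23% lower) and in LFD (5.98%, 2.7% higher and 3.28% lower). Within lanes Sparc was lower in each lane that holds both groups, by -2.45 to -0.29 in LFCR, -2.55 to -0.36 in MCR, -1.86 to -0.91 in ICR and -2.18 to -1.24 in LFD. The call in LFD was lost with the luminal epithelium mean as a covariate (-1.32, adjusted p = 0.302). The luminal mean was 11.5 ± 0.786 (log2) in LFD and 10.1 ± 0.341 in Obese, and 8 of its 12 genes were higher in LFD. Of 10 macrophage markers, 8 were lower than Obese in LFCR, 6 in MCR, 3 in ICR and 1 in LFD. Of 10 endothelial markers, 1 was lower in LFCR, 2 in MCR, 4 in ICR and 1 in LFD. Of 16 mature adipocyte markers, 11 were higher in LFCR, 7 in MCR, 4 in ICR and 2 in LFD. The adipocyte mean was 15.1 ± 0.237 (log2) in LFCR and 13.9 ± 0.504 in Obese, and the Sparc call in LFCR was kept with it as a covariate.

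Against Control, the log2 difference of Sparc was 0.21 ± 0.26 in LFCR, 0.11 ± 0.27 in MCR, 0.19 ± 0.26 in ICR and 0.26 ± 0.26 in LFD, with adjusted p of 0.529, 0.783, 0.647 and 0.546 in that order. These p-values do not show that the diets and Control are alike. Of the 50 neighbouring pairs in the orders of group means over the 10 genes, only Obese against LFD for Sparc passed the test.

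Pdgfrb had no call on any diet against Obese, though some alternatives gave one. It had 2993 ± 352 normalized counts in LFCR, 3637 ± 1131 in MCR, 2865 ± 215 in ICR and 2758 ± 720 in LFD, against 3911 ± 813 in Obese. The log2 differences were -0.37 ± 0.18 in LFCR (adjusted p = 0.156), -0.14 ± 0.19 in MCR (0.678), -0.42 ± 0.18 in ICR (0.146) and -0.51 ± 0.18 in LFD (0.0909). Without LFD 1, the only LFD library with low B cell transcripts, the last was -0.65 (adjusted p = 0.0335). LFD was also called with the B cell covariate (adjusted p = 0.0141) and the adipocyte covariate (0.0268). LFCR was called under voom on recovered reads (-0.64, adjusted p = 0.00426) and with the B cell covariate (-0.42, 0.00941), and ICR under voom (-0.51, 0.0429) and with the adipocyte covariate (-0.58, 0.0342). The mean of Pdgfrb on every diet lay between the Obese and Control means, with MCR nearest to Obese and LFD nearest to Control.

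Against Control, Pdgfrb was higher in MCR (0.62 ± 0.19, adjusted p = 0.0229), where the libraries had 3774, 2158, 4912 and 3702 normalized counts. Only MCR 2, the library with a high B cell mean, lay within the Control range. The call was lost without MCR 1, 3 or 4, or without Control 1 or 5 (adjusted p of 0.0514 to 0.117), and without the 8 libraries the difference turned to -0.065 (adjusted p = 0.997), with MCR 2 as the only MCR library. In LFCR and ICR every library lay above every Control library, at 2747 to 3605 and 2703 to 3243 against 1732 to 2606, yet the test was not passed (0.39 ± 0.18, adjusted p = 0.0808, and 0.34 ± 0.18, adjusted p = 0.244). Fitted without the other groups, LFCR against Control was called (adjusted p = 0.0398). Ranges did not overlap for 21.1% of all genes in LFCR and 7.57% in ICR. In MCR and LFD against Control no member's ranges were apart, beside 6.79% and 2.72% of all genes.

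Ly6a, the GPI-anchored Sca-1 protein of progenitors, endothelium and T cells and an interferon-induced gene, was lower on calorie restriction than on the unrestricted low-fat diet. Over the 14 libraries of the 3 restricted diets Ly6a ran from 2432 to 5101 normalized counts with a median of 3936. The LFD libraries had 4771, 3967, 6827, 8040.4 and 6282. LFD 1 and 2 lay within the restricted range, and LFD 3, 4 and 5 were above it. Ranges of the 2 sets were apart for 0.294% of all genes. The mean was 3715 ± 777 over the restricted libraries and 5978 ± 1625 in LFD (n = 14 and 5), and the log2 difference was -0.66 ± 0.16 (adjusted p = 0.0254). Ly6a was the only member called there, 1 of 10 and lower, against 3.33% of all genes called, 1.68% higher and 1.65% lower.

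Ly6a was lower in 4 of the 5 lanes that hold both, at -1.10 to 0.06. The call rested on the LFD libraries: without LFD 1, 3, 4 or 5 adjusted p was 0.0515, 0.100, 0.100 and 0.0515, and it was lost with the luminal mean as a covariate (-0.50, adjusted p = 0.325) and without the 8 libraries (-0.67, adjusted p = 0.292). Of the luminal markers 3 of 12 were lower in the restricted diets than in LFD. Beside Ly6a, its relative Ly6e, which is also induced by interferon, was lower in the restricted diets (-0.56 ± 0.12, adjusted p = 0.0122). Of the list of Ly6 and GPI-anchored proteins that holds both, 3 of 10 were lower and 0 higher, beside 1.65% and 1.68% of all genes. A part for interferon was not tested.

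Among single diets LFCR had the lowest Ly6a, at 2496, 3361, 2616, 3885 and 4092 normalized counts. The Obese libraries had 5947, 6087, 4612, 4178 and 5530, and the Control libraries 3763, 5312, 4728, 5697 and 5835. Every LFCR library lay below every Obese library, but not below every Control library. Ly6a averaged 3290 ± 722 in LFCR, against 5271 ± 839 in Obese (-0.69 ± 0.19, adjusted p = 0.0111) and 5067 ± 846 in Control (-0.63 ± 0.19, adjusted p = 0.0152). It was also lower in LFCR than in LFD (-0.84 ± 0.19, adjusted p = 0.0132), where 9.6% of all genes were called. The 2 lowest LFCR libraries, 1 and 3, are those with low B cell transcripts, and without the 8 libraries the differences were -0.38 against Obese (adjusted p = 0.316) and -0.41 against Control (adjusted p = 0.192). Without LFCR 1 adjusted p against Control was 0.0515, and that call was also lost with the luminal covariate (-0.49, adjusted p = 0.0614) and the adipocyte covariate (-0.81, adjusted p = 0.491).

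The other restricted diets gave Ly6a means of 4019 ± 102 in MCR and 3896 ± 1037 in ICR. Against Obese the differences were -0.37 ± 0.20 in MCR (adjusted p = 0.247), where the libraries (3915 to 4140.5) lay just below the lowest Obese library, and -0.46 ± 0.19 in ICR (adjusted p = 0.137). An F-test of differences among LFCR, MCR and ICR called 0 of the 10 members and 0 of 19387 genes by limma. At an unadjusted p below 0.05 it had 1 member and 2506 genes, and limma's voom on recovered reads called 1 gene, which was no member. The limma F-test called 644 genes with the B cell covariate, 60 with the adipocyte covariate and 505 without MCR 2, and 0 members in each. By pairs, 0.00516% of all genes were called in MCR against ICR and 0 in the other pairs of restricted diets. Against LFD 0.294% were called in MCR and 0.0309% in ICR, with no member among them.

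Thy1, Ly6a and Dpp4, all surface proteins that T cells also carry, were lower in LFCR than in Control, and no member was called higher. These 3 of 10 stand beside 38.1% of all genes called, 20.1% higher and 18% lower. Thy1, a GPI-anchored glycoprotein of T cells, neurons and fibroblasts, and Dpp4, a membrane protease that cleaves dipeptides from hormones and chemokines, are described next.

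Thy1 had 727, 2319, 820, 1982 and 2732 normalized counts in the LFCR libraries and 1189, 4207, 973 and 802 in the MCR libraries. In the Control libraries it had 5549, 5039.96, 3987, 2416 and 3972. Thy1 averaged 1716 ± 901 in LFCR and 1793 ± 1617 in MCR, against 4193 ± 1205 in Control. The difference was -1.41 ± 0.43 in LFCR (adjusted p = 0.0152) and -1.50 ± 0.46 in MCR (adjusted p = 0.0226), where Thy1 and Pdgfrb were called and so were 29.6% of all genes, 13.9% higher and 15.7% lower. That share is of 5730 genes, a count that was 763 without MCR 1, 547 without MCR 3 and 9117 without MCR 2. MCR 2 lay inside the Control range, and all 3 other MCR libraries lay far below it.

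Thy1 was low in the libraries that were low in T cell transcripts. In the 8 libraries with low B cell transcripts it had 727 to 1533 normalized counts, and in the other 21 it had 1577 to 5549, with no overlap. The share of all genes with ranges apart between these 2 sets of libraries was not counted. The mean of 12 T cell genes was 8.33 ± 2.18 (log2) in LFCR and 7.40 ± 2.50 in MCR, against 10.7 ± 0.698 in Control. All 12 T cell genes and all 13 B cell genes were lower in MCR than in Control, and 0 of either list passed the test in LFCR against Control. Summed over the list, T cell genes were lowest at 545 normalized counts in an LFCR library and 484 in an MCR library, and at 11273 in the lowest Control library. Without the 8 libraries Thy1 was -0.79 in LFCR against Control (adjusted p = 0.0402) and 0.059 in MCR against Control (adjusted p = 0.997). The LFCR call was lost without LFCR 1 or 3 (adjusted p = 0.0558 and 0.0522), and the MCR call without MCR 1, 3 or 4 or Control 1 or 2 (0.0601 to 0.0933). With the mature adipocyte mean as a covariate Thy1 was -0.13 in LFCR (adjusted p = 0.979). Within lanes Thy1 was lower in LFCR in 4 of 4 lanes (-2.89 to -0.99) and in MCR in 3 of 4 (-2.27 to 0.08).

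**Figure D3:**
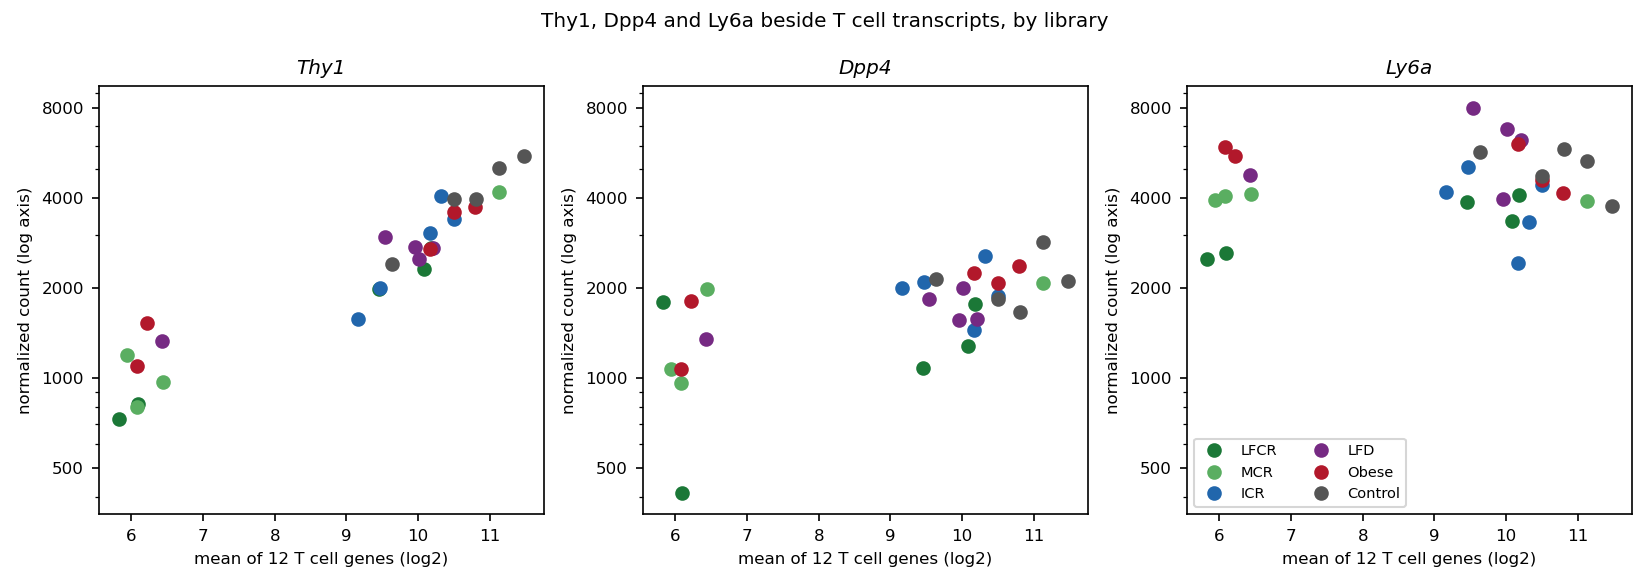
Normalized counts of Thy1, Dpp4 and Ly6a (log axis) against the mean log2 value of 12 T cell genes, 1 point per library, colored by group. For Thy1 the 8 libraries at the left (727 to 1533) lie below all of the other 21, while Dpp4 and Ly6a overlap between the 2 sets of libraries. The share of all genes split in this way was not counted.

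Dpp4 had 1792, 1276, 410.3, 1078 and 1767 normalized counts in the LFCR libraries. In the Control libraries it had 2115, 2849.8, 1839, 2140.5 and 1667. LFCR 3 was the lowest of all 29 libraries, and LFCR 1 and 5 overlapped with Control. Dpp4 averaged 1265 ± 569 in LFCR and 2122 ± 452 in Control, a difference of -0.87 ± 0.30 (adjusted p = 0.0251). Without LFCR 3 it was -0.52 (adjusted p = 0.103), and the call was also lost without Control 1 or 2 (0.0521 and 0.0744) and with the adipocyte mean as a covariate (-0.34, adjusted p = 0.924). Within lanes Dpp4 was lower in 4 of 4 lanes (-2.31 to -0.24), and without the 8 libraries it was -0.62 (adjusted p = 0.0213). The call was lost with the B cell covariate (-0.57, adjusted p = 0.137) and when only the groups compared were fitted (adjusted p = 0.0731). The mature adipocyte mean was 15.1 ± 0.237 (log2) in LFCR and 13.7 ± 0.749 in Control, with 14 of 16 of its genes higher.

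The same gene averaged 1524 ± 589 in MCR, 1996 ± 400 in ICR, 1666 ± 254 in LFD and 1914 ± 514 in Obese. None of these passed the test against Control, nor did LFCR against Obese (-0.70 ± 0.30, adjusted p = 0.0961). Without LFCR 1, LFCR 5 or Obese 1 the last difference was -0.89 to -0.86 with adjusted p of 0.0358 to 0.0494. It was also called without the 8 libraries (-0.71, adjusted p = 0.0220) and under voom on recovered reads (-0.99, adjusted p = 0.0196).

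Pi16, known in the mouse as a marker of the same progenitors as Dpp4, passed the test in none of the comparisons. It averaged 2561 ± 2099 normalized counts in LFCR, 3012 ± 2312 in MCR, 4274 ± 1938 in ICR and 2915 ± 799 in LFD, beside the Obese and Control means above. The ICR libraries had 5718, 4787, 1433, 6168 and 3265, and the Control libraries 556, 2007, 2035, 3205 and 1173. All but ICR 3 lay above every Control library, and the difference was 1.29 ± 0.54 (adjusted p = 0.147). In LFCR, Pi16 ran from 763 to 6098, so that its spread within 1 group was nearly that of all 29 libraries.

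LFD against Control called 0 members and 0% of all genes by limma. At an unadjusted p below 0.05 it had 0 members and 2425 of 19387 genes, and voom on recovered reads also called 0 genes. ICR against Control called 0 members, beside 4.58% of all genes, 3.69% higher and 0.882% lower, and had 3 members (Pi16, Ly6a and Dcn) at an unadjusted p below 0.05. Both groups keep all their libraries when the 8 are left out, so the differences stay the same and the shared spread is smaller. Then Pdgfrb (0.34, adjusted p = 0.0326), Pi16 (1.29, 0.0330), Fap (0.39, 0.0463) and Dcn (0.61, 0.0342) passed as higher in ICR, along with 4714 genes in all.

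In the main fit, 5 members had no call in any of the 15 pairs of groups: Pdgfra, Pi16, Fap, Dcn and Lum, with smallest adjusted p of 0.235, 0.147, 0.183, 0.190 and 0.359. Under voom on recovered reads Pdgfra was called lower in LFCR than in Obese (-0.68, adjusted p = 0.0210). Dcn and Lum code for decorin and lumican, small proteoglycans that coat collagen fibrils, and the genes lie 47.0 kb apart on chromosome 10. Dcn averaged 25974 ± 8986 normalized counts in LFCR, 29921 ± 13190 in MCR, 30536 ± 6805 in ICR, 27490.0 ± 11579 in LFD, 24349 ± 6868 in Obese and 19906 ± 4551 in Control. Control was thus lowest for Dcn, and it was lowest for Lum (2728 ± 787) and Fap (675 ± 149) too, with no neighbour in the order passing the test. Control has none of the 8 libraries with low B cell transcripts. Means in the 8 and the other 21 were 33643 and 23420 for Dcn, 5062 and 3053 for Lum, and 1083 and 734 for Fap. Without the 8, MCR (then MCR 2 alone) lay below Control for Dcn (-0.46), Lum (-0.98) and Fap (-0.02). LFCR, ICR, LFD and Obese stayed above Control, LFD by 0.19, 0.14 and 0.002. Lum averaged 3269 ± 807 in LFCR, 3908 ± 2431 in MCR, 3897 ± 819 in ICR, 4164 ± 2786 in LFD and 3737 ± 1606 in Obese. Without MCR 2, Dcn was higher in MCR than in Control (0.82, adjusted p = 0.0269). The MCR libraries left in that fit all have low B cell transcripts, and no Control library does. Diet and this split of the libraries thus cannot be told apart there, and with MCR 2 alone the difference was -0.46.

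Fap, the fibroblast activation protein, is a membrane protease of the same family as Dpp4 and lies 88.7 kb from it on chromosome 2 (62500943 to 62574075, with Dpp4 at 62330073 to 62412231, GRCm38). It averaged 889 ± 296 normalized counts in LFCR, 919 ± 259 in MCR, 879 ± 82.3 in ICR, 810 ± 327 in LFD and 825 ± 254 in Obese. Its highest libraries were LFCR 1 (1392), LFD 1 (1367), MCR 3 (1274) and Obese 5 (1263), all among the 8 with low B cell transcripts. Pdgfra averaged 3875 ± 1223 in LFCR, 4473 ± 1561 in MCR, 4586 ± 513 in ICR and 4920 ± 1945 in LFD.

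A single F-test over the 6 groups called Sparc (adjusted p = 0.000244), Ly6a (0.00976) and Pdgfrb (0.0226), 3 of the 10, where 33.3% of all genes were called. For Thy1 it gave 0.0661 and for Dpp4 0.129. A share of 3 in 10 is near that of all genes.

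Genes related to the members by family or pathway were counted in lists that overlap in part. The list counts and the genes named from them are of the main fit only. They were not repeated without the 8 libraries with low B cell transcripts, which include Obese 1 and 5 and no Control library. Over all genes, leaving out the 8 moved the calls from 2496 to 628 in Obese against Control. In LFD against Obese it moved them from 1159 to 171. Over all genes tested, the shares called in Obese against Control were 9.44% higher and 3.44% lower. Against Obese, 9.42% of all genes were lower in LFCR, 5.69% in MCR, 5.23% in ICR and 3.28% in LFD. The SPARC family list holds 8 genes. In Obese against Control 4 of 8 were higher: Sparc, Fstl1 (17752 ± 5606 against 7161 ± 2086, log2 difference 1.30 ± 0.28, adjusted p = 0.00424), Smoc1 (0.97 ± 0.28) and Sparcl1 (0.88 ± 0.27). The list's median difference was 0.93, beside -0.03 over all genes. Fstl1, a secreted glycoprotein with a SPARC-like domain, fell with Sparc on each diet against Obese, by -1.60 ± 0.28 in LFCR, -1.22 ± 0.30 in MCR, -1.31 ± 0.28 in ICR and -0.99 ± 0.28 in LFD. Smoc1, in contrast, remained higher than Control in LFCR (1.48 ± 0.28), MCR (1.13 ± 0.30) and ICR (1.25 ± 0.28).

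Of the 12 PDGF ligands and signalling genes, 5 were higher in Obese than in Control and none lower, beside 9.44% and 3.44% of all genes. These include the ligand genes Pdgfa (522 ± 122 normalized counts against 318 ± 32.0, 0.65 ± 0.12, adjusted p = 0.00141), Pdgfb (0.70 ± 0.18) and Pdgfd (1.17 ± 0.30). The B and D ligands act through the receptor that Pdgfrb codes for, and the A ligand through that of Pdgfra. Pdgfa was lower than Obese in LFCR (-0.47 ± 0.12), ICR (-0.45 ± 0.12) and LFD (-0.40 ± 0.12), and did not pass in MCR. Pik3r1, a subunit of the kinase downstream of these receptors, was higher than Obese in LFCR (0.90 ± 0.19) and ICR (0.65 ± 0.19).

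Of 22 general fibroblast genes tested, 7 were higher in Obese than in Control and 0 lower, with a median difference of 0.65. Fbln2 (1.47 ± 0.29), Pcolce (1.06 ± 0.23) and Serpinf1 (1.35 ± 0.32) were among them, secreted proteins of matrix and collagen processing. Against Obese, 6 of the 22 were lower in LFCR, 4 in MCR, 3 in ICR and 2 in LFD, and none was higher, beside 9.42%, 5.69%, 5.23% and 3.28% of all genes lower. Fbln2 fell on all 4 diets, and Pcolce on LFCR, MCR and ICR. The 13 myofibroblast and fibrosis genes gave 2 higher in Obese than in Control, among them Lox (1.78 ± 0.37), which codes for a collagen cross-linking enzyme, and 6, 4, 1 and 0 lower against Obese in LFCR, MCR, ICR and LFD.

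The small leucine-rich proteoglycan list, which holds Dcn and Lum, had 2 of 13 higher and 1 lower in Obese against Control, near the 9.44% and 3.44% of all genes. Prelp (55178 ± 17894 against 15399 ± 5316, 1.85 ± 0.37) and Bgn (0.78 ± 0.20) rose there while Dcn and Lum did not pass. Bgn, biglycan, is the closest relative of decorin, and it was lower than Obese in LFCR (-0.86 ± 0.20), MCR (-0.92 ± 0.21), ICR (-0.73 ± 0.20) and LFD (-0.84 ± 0.20). Podn went the other way on restriction, higher than Obese in LFCR (1.15 ± 0.26) and ICR (1.24 ± 0.26) and higher in the restricted diets than in LFD (0.93 ± 0.21).

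Beside the 9.44% of all genes that were higher in Obese than in Control, the Dpp4/Pi16 progenitor list had 3 of 15 genes higher, Pcolce2 (1.61 ± 0.41), Ly6c1 (0.84 ± 0.23) and Sema3c (1.26 ± 0.37). The 12 committed preadipocyte genes had 4 higher, led by Col4a2 (1.35 ± 0.26) and Zfp423 (1.23 ± 0.27), and the 9 genes of CD142 regulatory stroma had 3, led by Cygb (1.00 ± 0.16). Pparg, the master regulator of adipocyte formation and also a gene of mature adipocytes, was higher than Obese in LFCR (1.08 ± 0.27) and MCR (0.90 ± 0.29). It was the only 1 of the 12 preadipocyte genes called higher in each, beside 11.9% and 6.66% of all genes. The list as a whole leaned lower, with median differences of -0.22 and -0.25 and only 2 and 1 of the 12 above 0. The DPP4 family list had 1 of 9 higher in Obese than in Control, near the share of all genes: Cav1, which binds DPP4 and is abundant in adipocytes and endothelium. The list of Ly6 and GPI-anchored proteins had 2 of 10 higher in Obese than in Control and 1 lower, beside 9.44% and 3.44% of all genes. Its median difference there was -0.60, with 4 of the 10 above 0. In LFCR against Control 2 were higher and 7 lower, beside 20.1% and 18% of all genes. Of this list Cd59a, a complement inhibitor, rose in Obese (1.86 ± 0.28). It fell against Obese in LFCR (-0.86 ± 0.28), MCR (-1.01 ± 0.30), ICR (-1.23 ± 0.28) and LFD (-1.13 ± 0.28).

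**Figure D4:**
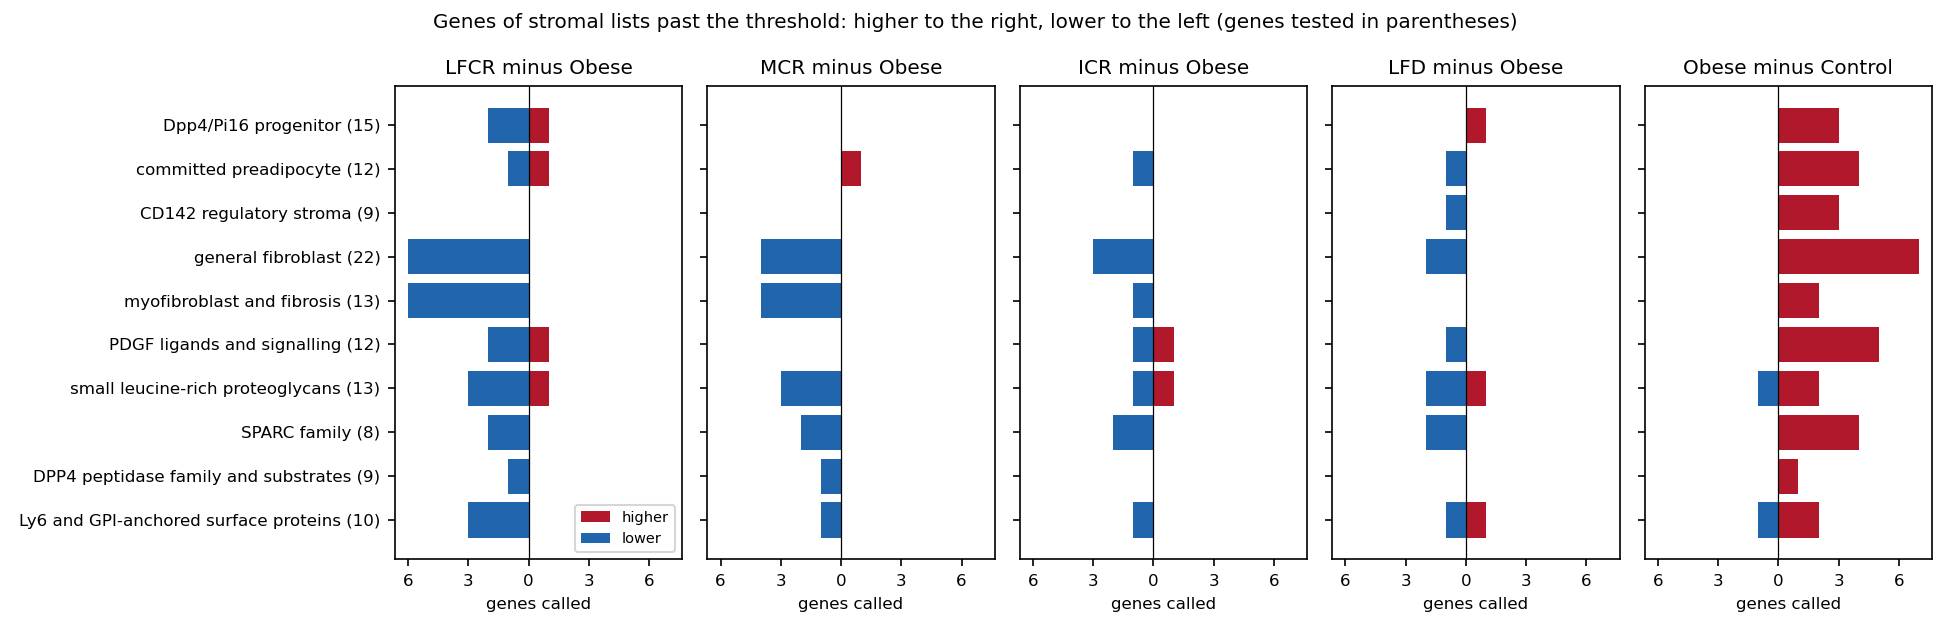
Number of genes past the limma threshold in 10 stromal lists, higher to the right and lower to the left, in the 4 diets minus Obese and in Obese minus Control. The general fibroblast list has 7 genes higher in Obese minus Control and 6, 4, 3 and 2 lower in LFCR, MCR, ICR and LFD minus Obese.

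The members differed in which genes they varied with across libraries. The likeness measure is Pearson's r of log2 values, given over the 21 libraries with high B cell transcripts and then over the 8, and all points share depth and tissue composition. Libraries are pooled over groups without a group term, so a difference between groups that a pair of genes shares also raises r. Sparc was most like Mrc2, a collagen uptake receptor of fibroblasts (0.95 and 0.98), and Pea15a (0.95 and 0.98). Pdgfra was most like Mrc1 (0.95 and 0.91), and Pi16 most like Lrrn4cl (0.96 and 0.97) and Cd34 (0.95 and 0.86). Pdgfrb was most like Cygb (0.90 and 0.85) and Fnip2 (0.89 and 0.48).

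Thy1 was most like Rab8a (0.96 and -0.31) and the T cell adhesion gene Cd2 (0.96 and 0.41) in the 21, with weaker likeness in the 8. Ly6a was most like 2 interferon-induced genes, Oas1g (0.90 and 0.73) and Ifitm3 (0.87 and 0.96). Dpp4 was most like Fcgr2b (0.89 and 0.83) and Tm6sf1 (0.87 and 0.29), and Fap like Pard3b (0.82 and 0.33) and Angptl2 (0.80 and 0.46). Dcn was most like Mitf (0.92 and 0.56) and Omd (0.91 and 0.70), and Lum like Cd209f (0.85 and 0.45) and Gabra3 (0.84 and 0.60).

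Among the members themselves, Pdgfra and Dcn were the most alike pair over the 21 libraries (0.81, and 0.83 over the 8). Dcn and Lum, neighbours on the chromosome, had 0.75 and 0.73, and Dpp4 and Fap, also neighbours, 0.19 and 0.71. Pi16 and Dpp4 had 0.30 over the 21 and 0.98 over the 8. Over the 21, which include Obese libraries, Sparc was most like Pdgfrb (0.72, and 0.54 over the 8), the other member that was higher in Obese. Over the 8 it was more like Ly6a (0.65) and Thy1 (0.59). It was less like its fellow matrix gene Dcn (0.18 and -0.23). Thy1 was below 0 with every member but Dpp4 over the 21 (0.46 with Dpp4, -0.54 with Dcn).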

How the data were processed

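Total RNA was extracted with TRIzol and sequenced from stranded total RNA libraries as paired reads of 76 bases on a HiSeq 2000, per the labels' protocols. The tools named in the submitters' processing notes are TopHat2 2.0.7, HTSeq 0.5.3p9 and DESeq2, with build mm10. No annotation or counting option is named there. The deposited table holds log2 values made by the authors, with 1 lowest value, 3.75, shared by all 29 libraries. No source states the transform. Inverting a variance-stabilising formula, with the shared minimum taken as 0 reads, gave whole reads for 100% of values within a tolerance of 0.01, and these gave the normalized counts and depths printed here.

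Genes with a normalized count of 10 or more in at least 4 libraries were kept. The log2 values of all 29 libraries were fitted in limma 3.58.1 (with statmod 1.5.0 under R 4.3.3), using 1 mean for each group, moderated robustly along a mean-variance trend. Comparisons were contrasts of group means, and the calorie-restricted diets entered against LFD as the mean of their 3 group means. The fit was checked on simulated data. The deposited values are not counts, so no count model was used as the main test, and limma's voom on recovered reads was an alternative. Exon lengths and gene positions come from GENCODE vM21 (GRCm38, which shares coordinates with mm10). Lanes come from the column headers, and no group has more than 1 library in a lane. Promoters are RefSeq's (GRCm38.p6).

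The members, lists and tests were chosen with earlier results of these data known. All 10 members are named. Of each list, up to 4 genes past the threshold with the smallest adjusted p per comparison could be named, and for likeness the 2 genes with the highest r over the 21 libraries and a mean count of 100 or more. Some genes that these rules pick are not reported here. Alternatives were fits of only the groups compared, lane as a term, quantile normalization, no filter, a minimum of 50, voom, leaving out the 8 libraries, covariates for B cell, luminal and adipocyte means, and leaving out each library in turn.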

Additional observations from a re-analysis of the deposited data

Results flagged for a closer look

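Of 60 sets of 1 gene in 1 group, 5 had a library standing apart from the others of its group, where chance alone flags about 1 in 20. Pdgfrb had 3605 normalized counts in LFCR 3, against 2747 to 2931 in the other LFCR libraries. In ICR 1, Pdgfrb had 3243 normalized counts, against 2703 to 2805 in the other ICR libraries. Thy1 had 1330 (1329.58) normalized counts in LFD 1, against 2505 to 2965 in the other LFD libraries. In LFD 1, Lum had 9097 normalized counts, against 2592 to 3611 in the others. Sparc had 18007 normalized counts in MCR 2, against 37908 to 41626 in the other MCR libraries. LFD 1 and LFCR 3 are among the 8 libraries with low B cell transcripts, MCR 2 is the only MCR library that is not, and ICR has none of them.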

How the results depend on the processing

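Sparc kept its call in Obese against Control and in LFCR and ICR against Obese under every alternative run, and in LFD against Obese under 19 of 20. In MCR against Obese it kept its call under every alternative that leaves more than 1 MCR library. Without the 8 libraries only MCR 2 is left, the lowest MCR library for Sparc, and the difference was -2.22. Pdgfrb in Obese against Control was kept in 20 of 20. Of member and comparison results with other settings, 967 kept direction and side of the threshold, 14 gained a call, 17 lost one and 2 reversed: without the 8 libraries with low B cell transcripts, which leaves 1 MCR library whose spread is assumed to be that of the other groups, MCR against Control turned to -0.065 for Pdgfrb and 0.059 for Thy1. Leaving out 1 library kept 1044 results, with 6 calls gained and 20 lost. The cause of these changes was not tested.

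Counts of members called moved by more than 1.5 times in these settings. Fitting only the groups compared gave 0 in MCR against Control. With voom, 5 were called in LFCR against Obese, 2 in ICR against Obese and 5 in the F-test over 6 groups. Leaving out the 8 libraries gave 0 in MCR against Control, 4 in ICR against Control and 0 in the restricted diets against LFD. The B cell covariate gave 2 in LFD against Obese and 0 in MCR against Control. The luminal covariate gave 0 in LFD against Obese and 0 in the restricted diets against LFD. The adipocyte covariate gave 2 in LFD against Obese, 2 in ICR against Obese, 0 in LFCR against Control and 0 in MCR against Control. Smaller moves were 2 in LFCR against Control without the 8 libraries, with the B cell covariate and with the luminal covariate, 3 in LFCR against Obese with the B cell covariate, and in the F-test 4 without the 8 libraries and 2 with the luminal covariate. With each library left out, members called were 2 to 2 in Obese against Control, 1 to 2 in LFD against Obese, 2 to 3 in LFCR against Obese, 1 to 2 in MCR against Obese and 1 to 1 in ICR against Obese. They were 1 to 3 in LFCR against Control, 0 to 3 in MCR against Control, 0 to 1 in the restricted diets against LFD and 2 to 4 in the F-test.

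Counts over all genes moved more. Obese against Control called 2496, and 628 without the 8 libraries. LFD against Obese called 1159, and 11 with the luminal covariate. LFCR against Control called 7383, and 1 with the adipocyte covariate. MCR against Control called 5730, and 1 when only the groups compared were fitted. Single libraries moved it to between 547 and 9117, and moved the restricted diets against LFD to between 100 and 1760. ICR against Control called 887, and 4714 without the 8 libraries. The restricted diets against LFD called 645, and 4 without the 8 libraries. Under voom, which scales by total reads, the median difference of all genes was -0.37 in LFCR against Control and -0.30 in LFCR against Obese, where the fit of log2 values gave -0.03 and -0.04. No analysis paired by replicate number was possible, because replicate numbers were given in accession order and pair nothing. Lane, with at most 1 library of a group in each, was fitted as a term instead, and within-lane differences are in the report. Depth limited none of the 10 genes, since each had reads in every library.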
